A study of Drosophila melanogaster with 7 samples.

Results

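Small nucleolar RNAs (snoRNAs) are short non-coding RNAs of the nucleolus, and the rows described here are those whose name in the deposited table begins with "snoRNA:". There were 273 such entries among 17481 rows. By their names they fell into 98 Me entries, 109 Psi entries and 66 entries with other names. The 93 entries that reached 1 FPKM (fragments scaled for transcript length and for the depth of the library) in at least 3 of the 7 libraries are called tested below, 9 of them Me, 66 Psi and 18 other. These 93 were chosen by their FPKM in the same 7 libraries, and an entry that passed only through the group where it was high had to differ, so counts and medians over them are a description, and so are the p-values of such an entry. The remaining members were 67 entries above 0 in some library but below the filter and 113 entries at 0 in every library.

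Most snoRNAs guide the modification of ribosomal RNA. Box C/D snoRNAs direct 2'-O-methylation, which the prefix Me stands for, and box H/ACA snoRNAs direct pseudouridylation, which Psi stands for. The rest of such a name gives the ribosomal RNA and the position modified. In flies most snoRNAs are cut out of introns of host genes, many of which encode ribosomal proteins or are non-coding U snoRNA host genes (Uhg), and the mature RNA carries no poly(A) tail. A fragment counted in an intronic snoRNA may come from the mature snoRNA or from unspliced host RNA, and these values do not separate them.

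Bulk RNA was measured in GFP-labelled intestinal stem cells sorted from midguts of adult Drosophila melanogaster at day 2, about 10000 cells per sample, and the RNA was amplified before sequencing. The 4 ScOE libraries came from flies overexpressing Sc, the product of scute (sc), a proneural transcription factor that acts in enteroendocrine cell formation, and the 3 Ctrl libraries from wild-type flies. The labels name neither the driver and promoter of the overexpression nor the number of animals. They do not say that libraries came from separate animals, so p-values measure the spread between these libraries, which may be partly technical. In bulk samples, fewer cells of a type and less RNA per cell cannot be told apart.

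The overexpressed gene was at 190, 122, 170 and 66.0 FPKM in ScOE 1 to 4, against 2.44, 0.978 and 0.886 FPKM in Ctrl 1 to 3 (log2 fold change 5.77 ± 0.40, SE; adjusted p = 8.6e-05 in limma). Of 6 progenitor markers all were tested, 1 rose and 1 fell, and their summed level was 439 to 519 FPKM in ScOE and 478 to 718 FPKM in Ctrl. Of 8 enteroendocrine markers 7 rose. Both tested markers of 3 for trachea fell, btl to 0.954 ± 0.367 FPKM in ScOE, against 3.97 ± 0.704 FPKM in Ctrl, and Cht2 to 0.439 ± 0.240 FPKM in ScOE, against 5.72 ± 0.842 FPKM in Ctrl. The untested one, trh, went the other way below the filter, at 0.202 ± 0.0593 FPKM in ScOE, against 0.0938 ± 0.0239 FPKM in Ctrl. Every ScOE library was above every Ctrl library for trh. The summed level of the 3 trachea markers was 1.29 to 2.16 FPKM in ScOE and 8.04 to 10.8 FPKM in Ctrl. Of 10 enterocyte markers 3 fell and none rose, and their summed level overlapped between the groups, at 245 to 8589 FPKM in ScOE and 633 to 18669 FPKM in Ctrl. The muscle markers Mhc, Mlc1, Mlc2, Act57B, Mf, wupA and up were higher in ScOE 3 than in any other library, for example Mf at 62.3 FPKM there, at most 0.729 FPKM in the other ScOE libraries and at most 2.44 FPKM in Ctrl. The other muscle marker listed, Tm1, did not share this, at 562, 554, 466 and 460 FPKM in ScOE 1 to 4. It was at 620, 740 and 680 FPKM in Ctrl 1 to 3 and fell (log2 fold change -0.42 ± 0.13, adjusted p = 0.0407 in limma). The part of these markers in the snoRNA results was not tested.

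The FPKM values of snoRNA entries turned out to be whole multiples of what 1 fragment is worth. With a fragment length of mean 200 and SD 80 bases, the defaults of Cufflinks, and a shortest fragment of 71 bases, 500 of 564 values above 0 (88.7%) were whole within 0.01. The fragments of 147 entries were recovered in this way, and 13 other entries above 0 did not give whole numbers. Among the tested entries 87 gave whole numbers, 3 of them without an annotated length, at the shortest length that made every value whole. The 6 that did not are the 6 that overlap an annotated exon of another gene. The 87 entries held 3 to 138 fragments over all 7 libraries, with a median of 10, and 43 of them held fewer than 10. Of their 440 values above 0, 162 (36.8%) were a single fragment, and 169 of all 609 values (27.8%) were 0.

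Which snoRNAs had any fragment followed their length. The annotation gave a length for 243 entries, with a median of 79 nt for Me, 140 nt for Psi and 106 nt for other entries. All 42 entries of 76 nt or less, 28 Me and 14 other, were at 0 in every library. Of 55 entries of 77 to 99 nt 30 were above 0 somewhere, and of 117 entries of 130 to 159 nt 103 were. A 0 for a short Me entry therefore does not show that the snoRNA was absent. At the short end 1 fragment was worth a great deal, up to 662 FPKM in ScOE 2 and up to 1530 FPKM in Ctrl 3 among entries of 77 to 99 nt. At 130 to 159 nt it was worth 2.81 to 7.22 FPKM in ScOE 2 and 6.50 to 16.7 FPKM in Ctrl 3. The filter of 1 FPKM thus asked of nearly every entry only for a fragment in 3 libraries.

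**Figure D1:**
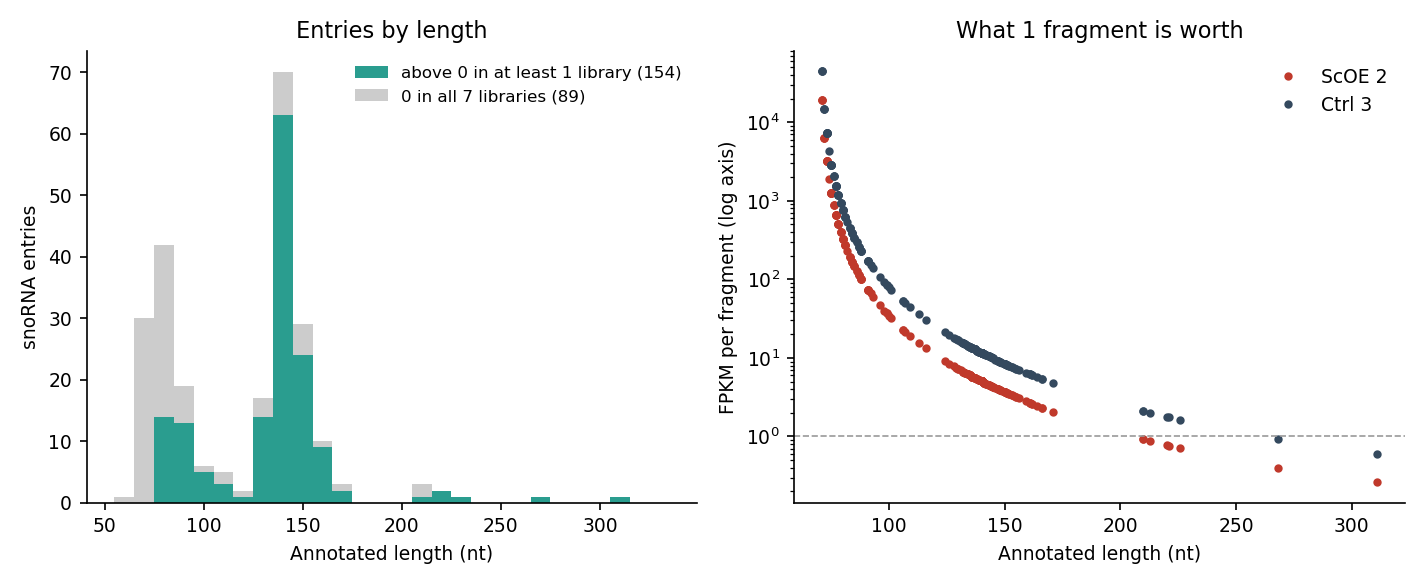
Left, number of snoRNA entries by annotated length in nt, split into those above 0 in at least 1 library and those at 0 in all 7 libraries. Right, FPKM worth of 1 fragment against length (log axis) in ScOE 2 and Ctrl 3, with 1 FPKM dashed: no entry of 76 nt or less was above 0, and the worth of 1 fragment falls steeply with length.

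Over all entries with recovered fragments, snoRNAs took a smaller share of the ScOE libraries. Fragments numbered 229, 197, 238 and 251 in ScOE 1 to 4, against 414, 248 and 249 in Ctrl 1 to 3. The total by which each library's FPKM had been divided, as the size of its steps implies, was 29.9 to 36.1 M fragments in ScOE and 15.6 to 21.0 M in Ctrl, M being mega. These totals depend on the assumed fragment lengths. Fragments divided by that total in M are given as FPM below, which is FPKM without its division by length. The snoRNA entries together came to 7.18, 5.45, 6.82 and 8.39 FPM in ScOE, against 19.7, 13.5 and 15.9 in Ctrl. The groups did not overlap, and the ScOE mean was 0.425 of the Ctrl mean.

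The FPKM of all 17176 genes with an annotated length, multiplied back by the length of their longest transcript, summed to 0.921 to 1.02 of it in ScOE and to 1.35 to 1.53 of it in Ctrl. With the length of the middle transcript the sums were 0.793 to 0.869 of it in ScOE and 1.14 to 1.30 of it in Ctrl. The total by which the values were divided thus stood in a different ratio to the summed fragments in each group, and the origin of that difference was not tested. Divided by these summed fragments in M instead, called summed-scale FPM, the snoRNA entries came to 7.05, 5.74, 6.84 and 9.12 in ScOE, against 14.0, 10.05 and 10.4 in Ctrl. The groups again did not overlap, but the ScOE mean was 0.625 of the Ctrl mean. The size of the difference thus depended on the scaling.

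Class values count only entries with recovered fragments, which among tested entries were 7 of 9 Me, all 66 Psi and 14 of 18 other. Or-CD9a, Or-CD9b and CG43051-a, all of them other entries, are left out. By class, the Psi entries carried most of these fragments. They held 5.81 ± 1.11 FPM in ScOE (SD, n = 4) and 13.8 ± 2.62 in Ctrl (SD, n = 3). The Me entries held 0.322 ± 0.0963 FPM in ScOE and 1.00 ± 0.409 FPM in Ctrl, and the other entries 0.836 ± 0.0825 in ScOE and 1.599 ± 0.642 in Ctrl. Within each of the 3 classes, so counted, every ScOE library lay below every Ctrl library on this scale. In summed-scale FPM this held for Psi, with 4.63 to 7.70 in ScOE and 8.51 to 11.8 in Ctrl, and for Me, with 0.233 to 0.436 in ScOE and 0.542 to 0.961 in Ctrl. It did not hold for the other entries, with 0.708 to 0.981 in ScOE and 0.752 to 1.66 in Ctrl. Summed FPKM over all 66 other entries, those left out included, also overlapped, at 767 to 3177 in ScOE and 2462 to 9624 in Ctrl.

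**Figure D2:**
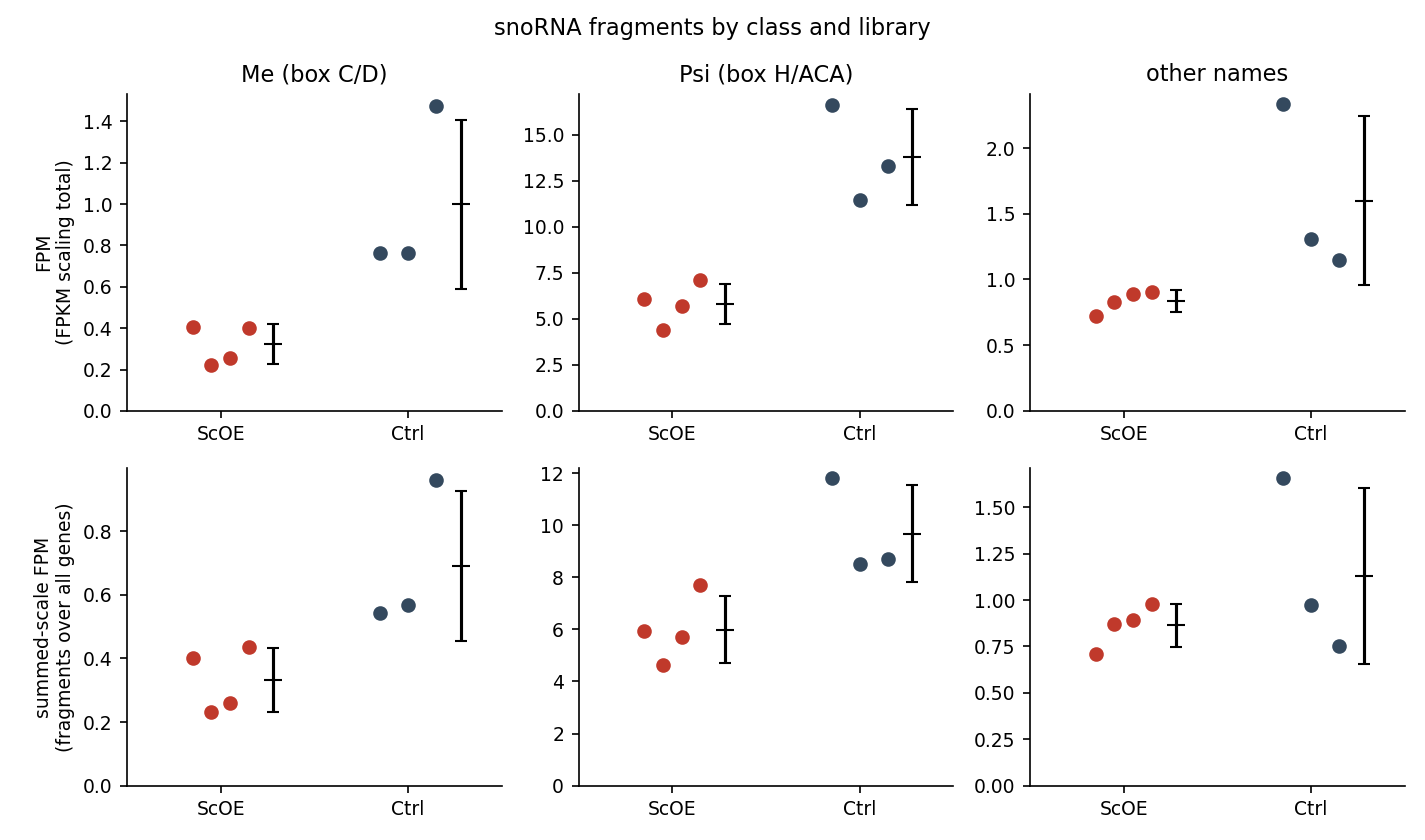
snoRNA fragments by class in each ScOE and Ctrl library (points), with mean and SD (black), as FPM, divided by the total implied by the FPKM steps (top), and as summed-scale FPM, divided by the fragments summed over all genes (bottom). Only entries that gave whole fragment numbers are counted. The Psi and Me entries are lower in every ScOE library on both scales, and the other entries overlap on the lower one.

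Summed FPKM gave a different picture of the classes. Short entries weigh much in it, and it also covers the entries without recovered fragments. It came to 2481 to 5448 FPKM in ScOE and 10670 to 17003 FPKM in Ctrl. In Ctrl, Psi entries with recovered fragments held 13.8 FPM and such Me entries 1.00 FPM. All 98 Me entries averaged 4287 FPKM there and all 109 Psi entries 2477 FPKM. A single entry, Or-CD9a, supplied much of the rest, and without it the summed level was 2336 to 4613 FPKM in ScOE and 5861 to 9953 FPKM in Ctrl.

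The test of ScOE against Ctrl called 17 of the 93 tested entries at an adjusted p under 0.05 (limma on log2(FPKM + 1), Benjamini-Hochberg over 8421 genes). That is 18.3% of the entries, where the same test called 39% of all tested genes. The SE of the log2 fold change had a median of 1.06 over the tested entries and 0.18 over all tested genes. There were 3 rises, against 17.6% of all genes, and 14 falls, against 21.3% of all genes. The groups did not overlap for 3 entries with ScOE above (20.3% of all genes) and for 17 with ScOE below (25.9% of all genes), 20 in all (46.3% of all genes). By class 1 Me entry rose and 1 fell, 1 Psi entry rose and 12 fell, and 1 other entry rose and 1 fell. The median log2 fold change of tested entries was -0.73, against -0.08 for all tested genes. Entries at 0 in every library of a group, with more than 3 fragments in the other, were then set to their bound against a floor of 3 fragments. With these bounds the median was -0.86. Such a bound is a limit, here used as a value. It can fall below no difference for an entry with fragments in ScOE alone, as for lola-b (0.965-fold). The lower medians with bounds therefore do not show more falls. By class the median without these bounds was -1.74 for Me, -0.73 for Psi and -0.38 for other entries. With the bounds it was -1.74 for Me, -0.86 for Psi and -0.66 for other entries.

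The split between rises and falls moved with the scaling. With equal FPKM totals 7 entries rose and 7 fell, where 52.9% of all genes rose and 3.33% fell. With libraries scaled to equal summed fragments, an alternative chosen after the data were seen, 7 entries rose and 9 fell, where 39.9% of all genes rose and 6.92% fell. The median of all tested genes was 0.68 with equal FPKM totals and 0.41 with equal summed fragments. Set against the median of all tested genes, the median entry lay at -0.66 as deposited, -0.74 with equal summed fragments and -0.79 with equal FPKM totals. The 3 rises were kept under both scalings. Of the 14 falls 9 were kept with equal summed fragments and 7 with equal FPKM totals.

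**Figure D3:**
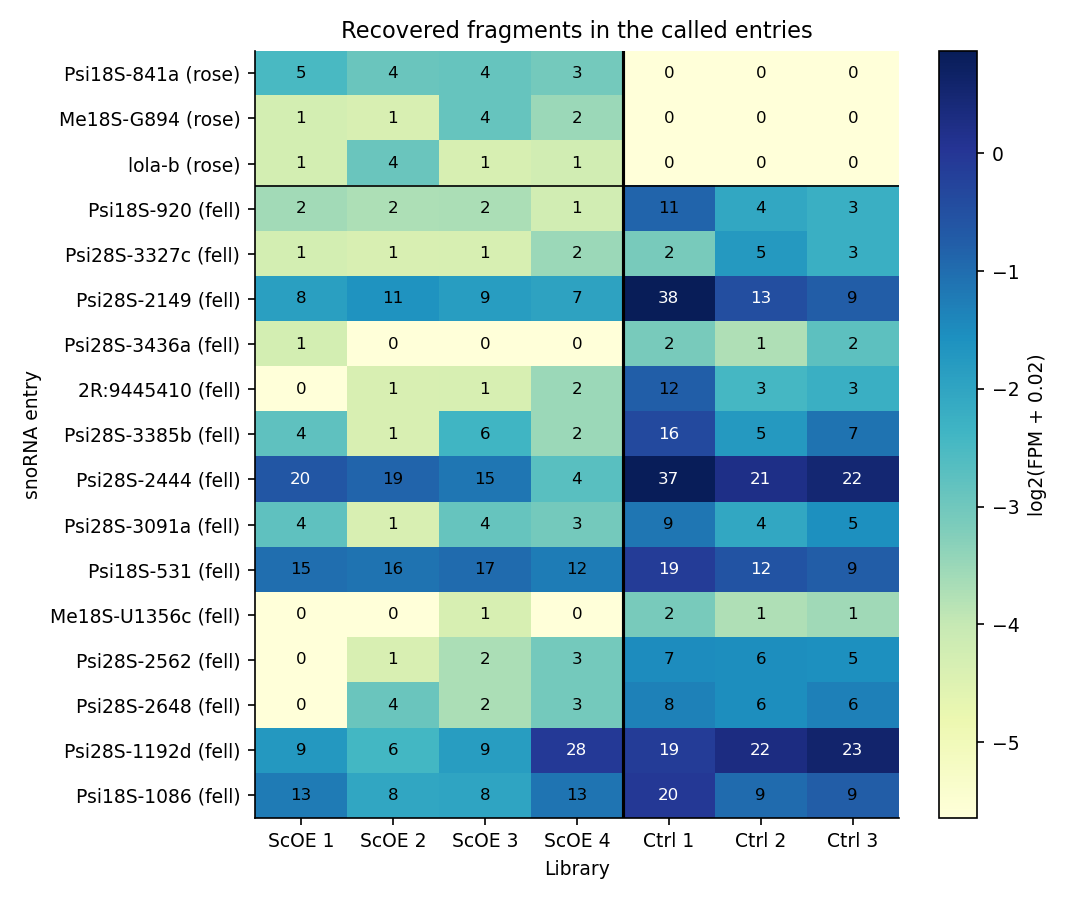
Recovered fragments (numbers) of the 17 called entries in each library, ScOE to the left of the line, with colour giving log2(FPM + 0.02). The 3 rises at the top have 0 fragments in every Ctrl library, and the falls range from 5 fragments in all for Me18S-U1356c to 138 for Psi28S-2444.

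All 3 entries called as rises were at 0 in every Ctrl library and passed the filter through ScOE alone, so their values are a description with no test. Among the falls Me18S-U1356c and Psi28S-3436a reached 1 FPKM in 1 ScOE library each and passed through Ctrl, so the same holds for them. Psi18S-841a is a guide for pseudouridylation of 18S ribosomal RNA (144 nt, BDGP6 chromosome 2R, 21327056 to 21327199, plus strand, in an intron of dom). It was at 24.9, 17.6, 18.2 and 15.9 FPKM in ScOE 1 to 4, which are 5, 4, 4 and 3 fragments, and at 0 in all 3 Ctrl libraries. Against a floor of 3 fragments over the Ctrl group it was at least 2.21-fold higher in ScOE by FPM. With the counting error of both groups the lower 95% exact limit of the FPM ratio was 1.595.

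The other rises rested on fewer recovered fragments. Me18S-G894, a guide for methylation of 18S ribosomal RNA that the annotation used here does not list, had 1, 1, 4 and 2 fragments in ScOE and none in Ctrl, or at least 1.103-fold higher against the same floor. The lower exact limit of its FPM ratio was 0.706, which includes no difference on that scale. Its fragments were recovered at 108 nt, the shortest length that made them whole, so they are the fewest possible. A longer length would raise the bound and the limit. The entry lola-b, in an intron of lola, had 1, 4, 1 and 1 fragments in ScOE and none in Ctrl. Its bound against the floor was 0.965 and its lower exact limit 0.596, so by FPM its 7 fragments do not place it above Ctrl. Floors and limits were computed by FPM only. The ratio of ScOE to Ctrl over all entries with recovered fragments was 0.425 by FPM and 0.625 by summed-scale FPM. These readings may therefore differ on the latter.

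Of the 14 falls 12 were Psi entries and 9 lay in ribosomal protein genes, where 66 and 41 of the 93 tested entries did, and the difference between these shares was not tested. Psi18S-920, in an intron of RpL10Ab on chromosome 3L (11822984 to 11823124), was at 11.0, 9.70, 10.1 and 5.86 FPKM in ScOE, against 91.9, 38.3 and 33.7 FPKM in Ctrl. These are 2, 2, 2 and 1 fragments in ScOE and 11, 4 and 3 in Ctrl. The log2 fold change was -2.34 ± 0.37 (adjusted p = 0.0027), every ScOE library was below every Ctrl library, and the FPM ratio of the groups was 0.161 (95% exact interval 0.0568 to 0.404, counting error only).

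Psi28S-2149, in an intron of RpS7 on chromosome 3R (30206783 to 30206926), was among the better counted entries, with 95 fragments. It had 8, 11, 9 and 7 in ScOE and 38, 13 and 9 in Ctrl, which is 39.8, 48.4, 41.0 and 37.2 FPKM in ScOE and 288, 113 and 91.5 FPKM in Ctrl (log2 -1.77 ± 0.37, adjusted p = 0.00864). Ctrl 1 stood far above the others, and without it the log2 fold change was -1.27 and the call remained. It did not hold with equal FPKM totals (log2 -0.91, adjusted p = 0.0789). The 4 ScOE libraries lay close together.

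Psi28S-2444 had the most fragments of the 87 tested entries with recovered fragments, 138. It lies in an intron of RpL11 on chromosome 2R (19443127 to 19443256). It was at 164, 137, 112 and 34.9 FPKM in ScOE and 460, 299 and 367 FPKM in Ctrl, or 20, 19, 15 and 4 fragments in ScOE and 37, 21 and 22 in Ctrl (log2 -1.92 ± 0.51, adjusted p = 0.0224). ScOE 4 was the lowest library. The call was lost without Ctrl 1 and without Ctrl 3, with adjusted p up to 0.063 over the fits that left out 1 library. It was also lost with quantile normalization (adjusted p = 0.0525) and with equal FPKM totals (log2 -1.05, adjusted p = 0.0929).

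Psi28S-1192d, in an intron of RpS5a on chromosome X (17143934 to 17144068), had 9, 6, 9 and 28 fragments in ScOE and 19, 22 and 23 in Ctrl. Its levels were 61.0, 35.9, 55.8 and 202 FPKM in ScOE and 196, 260 and 318 FPKM in Ctrl, so ScOE 4 stood apart from the other ScOE libraries and above Ctrl 1, and the groups overlapped (log2 -1.82 ± 0.54, adjusted p = 0.0344). The call was lost without each of 6 libraries in turn, all but ScOE 4, with adjusted p up to 0.091. It was also lost with no filter, with quantile, upper quartile and summed-fragment scaling, and with equal FPKM totals (log2 -0.96, adjusted p = 0.135).

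Other Psi falls rested on smaller numbers. Psi28S-3385b, in an intron of kra, had 4, 1, 6 and 2 fragments in ScOE and 16, 5 and 7 in Ctrl (log2 -2.41 ± 0.61, adjusted p = 0.0182), and its call was lost without Ctrl 1 (adjusted p = 0.0546). Psi28S-3327c, in an intron of RpS4, had 1, 1, 1 and 2 fragments in ScOE and 2, 5 and 3 in Ctrl (log2 -2.08 ± 0.41, adjusted p = 0.00668). Psi28S-3436a, in an intron of RpL17, had 1, 0, 0 and 0 fragments in ScOE and 2, 1 and 2 in Ctrl (log2 -3.36 ± 0.71, adjusted p = 0.00911). All 3 guide pseudouridylation of 28S ribosomal RNA by their names.

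The called fall among entries with other names was 2R:9445410, which lies between genes at 2R 13557905 to 13558055, so the number in its name is not its BDGP6 position. It had 0, 1, 1 and 2 fragments in ScOE and 12, 3 and 3 in Ctrl, or 0, 3.54, 3.66 and 8.54 FPKM in ScOE and 73.0, 20.9 and 24.5 FPKM in Ctrl. The groups did not overlap (log2 -3.20 ± 0.78, adjusted p = 0.016), and with a pseudocount of 0.1 the call was lost (adjusted p = 0.06). The FPM ratio of the groups was 0.0919 (95% exact interval 0.0226 to 0.279).

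The largest fitted fall of any tested entry belonged to the Me class and rested on 5 fragments. Me18S-U1356c (79 nt, in an intron of Uhg8 on chromosome 3L, 20454496 to 20454574) was at 0, 0, 421 and 0 FPKM in ScOE and 1399, 801.4 and 940 FPKM in Ctrl. These levels are 0, 0, 1 and 0 fragments in ScOE and 2, 1 and 1 in Ctrl. The log2 fold change was -7.81 ± 2.15 (adjusted p = 0.0255). The FPM ratio of the groups was 0.103 with a 95% exact interval of 0.0021 to 1.04, which includes no difference, and with a pseudocount worth 1 fragment the log2 fold change was -0.93. The call was lost without each of 6 libraries in turn, all but ScOE 3, with adjusted p up to 0.0656, with no filter (adjusted p = 0.0545) and with the replicate block (adjusted p = 0.0554).

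The remaining 5 called falls, named here after their values were seen, were Psi28S-3091a, Psi18S-531, Psi28S-2562, Psi28S-2648 and Psi18S-1086. Psi18S-531, in an intron of RpL22, held 100 fragments, 15, 16, 17 and 12 in ScOE and 19, 12 and 9 in Ctrl. Its fragment numbers overlap between the groups, whose libraries were divided by different totals, while its FPKM did not overlap. Its fall (log2 -0.63 ± 0.17, adjusted p = 0.0243 in limma) was -0.08 with equal summed fragments (adjusted p = 0.74). Its call was lost without ScOE 2, ScOE 4 or Ctrl 2, with adjusted p up to 0.0618, and each of the other 4 lost its call without 2 to 4 of the libraries, Ctrl 1 and Ctrl 3 among them, with adjusted p up to 0.108.

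Of the entries with the highest mean FPKM, Or-CD9a, Or-CD9b and CG43051-a gave no whole fragment numbers. They therefore cannot be ranked by fragments. Or-CD9a (98 nt, chromosome 2R, 24185825 to 24185922), which overlaps an exon of Nop60B, had the highest mean of all. It was at 2532, 145, 23.1 and 433 FPKM in ScOE and 7049, 6419 and 1664 FPKM in Ctrl, so ScOE 1 lay above Ctrl 3 and the groups overlapped (log2 -4.08 ± 1.46, adjusted p = 0.0625). It was called without ScOE 1 (adjusted p = 0.0149), with library weights (0.00973), with the replicate block (0.0326) and with a pseudocount worth 1 fragment (0.0414). Its neighbour Or-CD9b, also over a Nop60B exon, was at 28.7, effectively 0, 88.2 and 84.6 FPKM in ScOE and 400, effectively 0 and 365 FPKM in Ctrl (log2 -1.27 ± 2.49, adjusted p = 0.722). CG43051-a, over an exon of the non-coding gene of that name, was at 265 ± 137 FPKM in ScOE and 252 ± 71.5 FPKM in Ctrl (log2 -0.17 ± 0.62, adjusted p = 0.85).

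The Me entry with the highest mean, Me28S-G2703c, lies in an intron of Uhg5 and was at 166, 439, 303 and 531 FPKM in ScOE and 756, 577 and 3046 FPKM in Ctrl. That is 1, 3, 2 and 3 fragments in ScOE and 3, 2 and 9 in Ctrl, and it did not pass (log2 -1.74 ± 0.64, adjusted p = 0.0671). Me28S-C3420b had 2, 0, 0 and 3 fragments in ScOE and 2, 2 and 1 in Ctrl (log2 -3.997 ± 2.201, adjusted p = 0.192). It was called with library weights (log2 -5.91, adjusted p = 0.0219).

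Just inside the filter lay Tudor-SN-a, Psi28S-3342 and Psi18S-1389a, which had 2.07, 2.46 and 2.81 FPKM as the third highest of their 7 values. Just outside lay CG32479-a, Me28S-A2634c and Me28S-G3253, where the third highest value was 0.852 FPKM for CG32479-a and effectively 0 for the other 2. Me28S-A2634c was at 2.57 FPKM in ScOE 1 and 0.103 FPKM in Ctrl 1, and Me28S-G3253 at 404 and 19.1 FPKM in ScOE 3 and ScOE 4, with their other libraries effectively at 0.

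Host genes were measured apart from the rule. The annotation placed 230 entries within 76 host genes on the same strand, and 79 of the 93 tested entries lay in an intron. Of 69 tested hosts 51 fell and 2 rose, where 21.3% of all genes fell and 17.6% rose, among them all 27 ribosomal protein hosts and all 6 Uhg hosts, which fell, with median log2 fold changes of -0.92 and -1.21. With equal FPKM totals 12 hosts rose and 3 fell, where 52.9% of all genes rose and 3.33% fell, and the medians of the ribosomal protein and Uhg hosts were -0.05 and -0.36. Of the 14 entries that fell, 10 had a host that fell, 3 had a host that was not called and 1 had none. A scaling between libraries moves a host and its entries together.

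In 20 hosts whose entries together held at least 20 fragments, the ratio of entry FPM, ScOE over Ctrl, was below 0 on the log2 scale in 18. It was below the log2 fold change of the host itself in 13. The median was -1.10 for the entries and -0.88 for the hosts. Across these 20 hosts Pearson's r was 0.57 and Spearman's rho 0.48, a description over hosts that share the same 7 libraries.

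The 14 entries of RpS5a, a gene for a protein of the small ribosomal subunit, had 31, 16, 26 and 49 fragments in ScOE and 57, 52 and 54 in Ctrl, a log2 ratio of -1.66, while RpS5a itself was at 4060 ± 753 FPKM in ScOE and 7474 ± 1265 FPKM in Ctrl (log2 -0.89 ± 0.19, adjusted p = 0.00983). The 7 entries of RpS7 had 14, 13, 18 and 18 fragments in ScOE and 50, 17 and 18 in Ctrl (log2 ratio -1.63), against -0.87 ± 0.21 for RpS7. The 8 entries of kra, a gene for a translation regulator, had 15, 4, 15 and 16 fragments in ScOE and 38, 17 and 23 in Ctrl (log2 ratio -1.86), while kra itself did not pass (log2 -0.56 ± 0.21, adjusted p = 0.0734). In these hosts the entries differed by more than the host on the log2 scale.

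RpL22 was of the other kind. Its entries had 19, 17, 22 and 16 fragments in ScOE and 21, 14 and 9 in Ctrl, a log2 ratio of -0.48, while the gene fell by 0.89 on the log2 scale (adjusted p = 0.00458). The 17 entries of Arpc2, which encodes a subunit of the actin-nucleating Arp2/3 complex, had 8, 11, 14 and 9 fragments in ScOE and 3, 12 and 16 in Ctrl (log2 ratio -0.95), close to the host at -0.85 ± 0.12 (adjusted p = 0.0018).

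The dom gene, which encodes a chromatin remodelling ATPase, had the entries with the highest log2 ratio of the 20 hosts. Of its 15 entries 12 were above 0, with 11, 7, 9 and 14 fragments in ScOE and 0, 3 and 2 in Ctrl, a log2 ratio of 1.70 by FPM. Every ScOE library was above every Ctrl library. The host was at 18.6 ± 2.21 FPKM in ScOE (SD, n = 4) and 19.0 ± 2.65 FPKM in Ctrl (SD, n = 3), a log2 fold change of -0.02 ± 0.15 (adjusted p = 0.922). Without Psi18S-841a the other 11 entries had 6, 3, 5 and 11 fragments in ScOE and 0, 3 and 2 in Ctrl, a log2 ratio of 1.01. The groups overlapped, with 0.083 FPM in ScOE 2 and 0.164 FPM in Ctrl 2. Psi18S-841a was singled out by its call, so the first ratio is partly set by that choice.

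The lola gene, which encodes BTB zinc finger transcription factors, was a host that rose. It was at 211 ± 16.6 FPKM in ScOE and 128 ± 15.5 FPKM in Ctrl (log2 0.72 ± 0.13, adjusted p = 0.00431). Its 4 entries had 1, 6, 3 and 2 fragments in ScOE and none in Ctrl. That was at least 1.65-fold higher by FPM against the floor of 3 fragments, with a lower 95% exact limit of 1.15. The entry lola-b, 1 of the 4, was called and passed the filter through ScOE alone. The bound and the limit are partly set by that choice and are a description with no test.

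**Figure D4:**
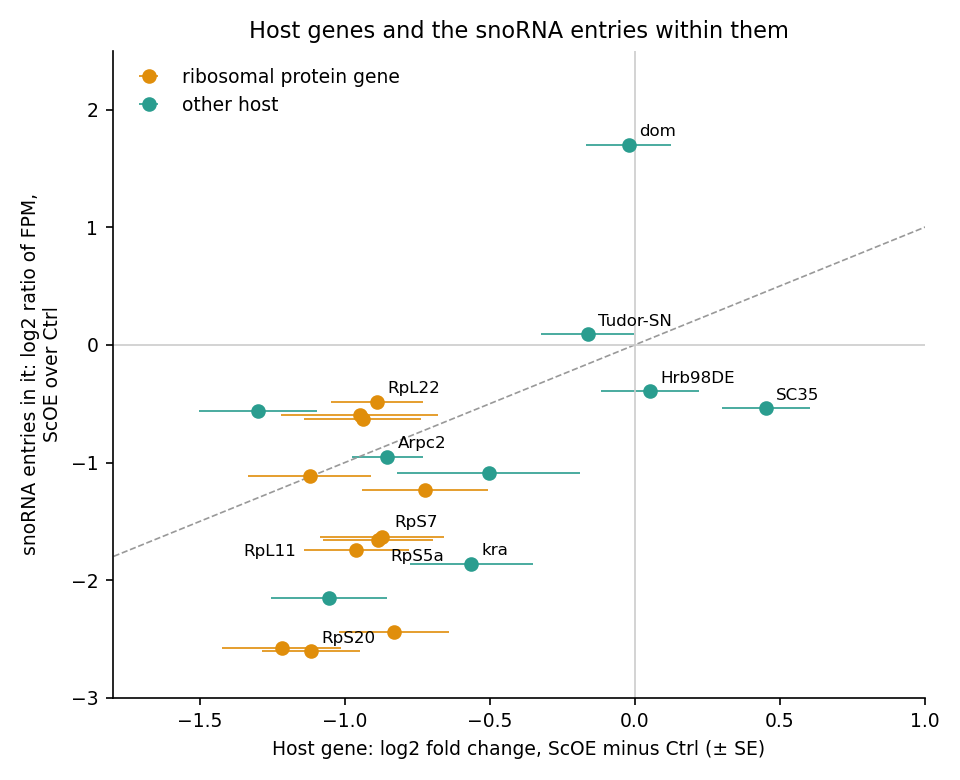
Log2 ratio of snoRNA entry FPM, ScOE over Ctrl, against the log2 fold change of the host gene (± SE), for 20 hosts with at least 20 fragments. The dashed line marks equal values: 13 hosts lie below it, and dom lies at 1.70 for its entries and -0.02 for the gene.

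The protein partners of snoRNAs were taken from a list of 25 genes, of which 24 were matched and tested, and Tgs1 was not matched. On the deposited scale 10 fell and none rose, where 21.3% of all genes fell and 17.6% rose. All 4 members of the box C/D core fell. Fib, the methyltransferase fibrillarin, was at 44.4, 35.8, 46.5 and 45.5 FPKM in ScOE and 111, 92.6 and 83.9 FPKM in Ctrl (log2 -1.13 ± 0.15, adjusted p = 0.00113). Nop56, a core scaffold protein, was at 142 ± 13.4 FPKM in ScOE and 288 ± 78.9 FPKM in Ctrl (log2 -0.99 ± 0.19), and its relative nop5 was at 105 ± 18.7 FPKM in ScOE and 245 ± 94.8 FPKM in Ctrl (log2 -1.16 ± 0.26). The groups did not overlap for these 3 genes.

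Of the 4 members of the box H/ACA core 3 fell. Nop60B, the pseudouridine synthase, was at 81.6 ± 16.3 FPKM in ScOE and 151 ± 42.6 FPKM in Ctrl (log2 -0.86 ± 0.22, adjusted p = 0.0194). CG4038, the fly Gar1 protein, was at 205 ± 27.6 FPKM in ScOE and 389 ± 42.1 FPKM in Ctrl (log2 -0.92 ± 0.14), and NHP2 fell by 0.78 on the log2 scale. CG7637, the fly Nop10 protein, did not pass (log2 -0.63 ± 0.23, adjusted p = 0.0654). Among 5 assembly and nucleolar genes 1 fell, Nopp140, a nucleolar phosphoprotein that binds snoRNPs (log2 -0.71 ± 0.19). Among 11 genes of the nuclear exosome, which trims snoRNA ends, Dis3 and Csl4 fell (log2 -0.75 ± 0.16 and -0.64 ± 0.19), and the other 9, Rrp6 among them (log2 0.02 ± 0.20, adjusted p = 0.943), did not pass.

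These falls depended on the scaling. With equal FPKM totals 5 of the 24 genes rose and none fell, where 52.9% of all genes rose and 3.33% fell. With equal summed fragments 2 rose and 1 fell, where 39.9% of all genes rose and 6.92% fell. The median log2 fold change of the box C/D core was -1.06 as deposited and -0.20 with equal FPKM totals, where the median of all tested genes was 0.68. For the box H/ACA core the values were -0.82 and 0.04.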

How the data were processed

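RNA was measured by sequencing in sorted midgut cells, in 4 ScOE and 3 Ctrl libraries. The authors deposited FPKM, and per the submitters' processing notes the tools were TopHat2 2.0.10 and Cufflinks 2.2.1 with the build BDGP6. Scaling between libraries and the use of strand are not given in the sources used here, so entries that overlap other genes or have near-identical copies are uncertain.

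Genes that reached 1 FPKM in 3 or more libraries were compared by limma 3.58.1 (R 4.3.3) with a variance trend on log2(FPKM + 1), two-sided, with Benjamini-Hochberg adjustment and no covariate, checked on simulated data. Fold changes are on that scale, which understates the change of genes with low FPKM. Where 1 fragment is worth far more than 1 FPKM, it can instead enlarge a difference of few fragments. With a pseudocount worth 1 fragment the log2 fold change was -0.93 for Me18S-U1356c, against -7.81. For Me18S-G894 it was 0.90, against 5.27. Fragments were recovered by dividing each FPKM by the worth of 1 fragment. Class totals use these fragments, whose intervals and floors are by FPM and cover counting error only. Hosts and lengths came from the Ensembl BDGP6 annotation, which lists 243 of the 273 IDs. Alternatives were pseudocounts, filters, scalings, moderation, a replicate block and each library left out.

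The entries named were the 8 with the highest mean, up to 5 called per class and direction, the highest of each class, the 3 just inside and outside the filter, and their hosts. The members and lists were chosen with earlier results of these data known.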

Additional observations from a re-analysis of the deposited data

Results flagged for a closer look

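Among 52 sets of 4 ScOE values looked at, 8 held a library far from the other 3 by Dixon's criterion at 95%. Chance meets it in about 1 in 20 sets of continuous, normally distributed values. A step of a single fragment can meet it by itself, so the 8 cannot be set against that rate. For Me18S-U1356c the high value was 420.8 FPKM against 0 in the other 3 libraries, for Psi28S-3436a 5.50 FPKM against 0, and for Psi28S-3342 2.46 FPKM against 0, and each of these is a single fragment. Psi28S-3327c reached 12.1 FPKM in ScOE 4, which is 2 fragments against 1 in each other ScOE library, and lola-b reached 10.7 FPKM in ScOE 2, which is 4 fragments against 1 in each of the others. Psi28S-1192d was at 202.4 FPKM in ScOE 4, with 28 fragments against 6 to 9. Or-CD9a was at 2532 FPKM in ScOE 1, and the other ScOE libraries lay at or below 433 FPKM. Nopp140 was at 30.8 FPKM in ScOE 4, against 18.3 to 19.8 FPKM in the other ScOE libraries.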

How the results depend on the processing

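The count of 17 called snoRNA entries was 12 to 22 with each library left out in turn, and falls dropped to 9 without Ctrl 1, Ctrl 3 or ScOE 2. It was 38 (9 rises, 29 falls) with library weights. Called host genes, 53, were 24 with quantile normalization, 15 with equal FPKM totals, 14 with such totals taken without snoRNA entries, 27 with equal summed fragments and 45 to 55 with a library left out. Called snoRNP genes, 10, were 3 with quantile normalization, 6 with upper quartile scaling, 5 with equal FPKM totals, 5 with such totals without snoRNA entries and 3 with equal summed fragments, and 5 to 11 with a library left out (6 without ScOE 1, 5 without ScOE 2). Of the 17 calls 8 were kept in every fit without 1 library. Psi18S-841a, Me18S-G894, Psi18S-920, Psi28S-3327c and Psi28S-3436a were also kept under the other pseudocounts, filters, scalings, moderations and the block. Psi18S-841a, Me18S-G894 and Psi28S-3436a passed the filter through the group where they were high, as did lola-b among the 8. Their kept calls are therefore a description with no test.

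Directions reversed for entries that were not called. CG43051-a (log2) was 0.16 with quantile normalization, 0.0077 with upper quartile scaling, 0.70 and 0.69 with equal FPKM totals with and without snoRNA entries, 0.38 with equal summed fragments, and ranged from -0.41 to 0.43 with each library left out (0.43 without ScOE 4, 0.045 without Ctrl 2). Or-CD9b was 2.36 with library weights, and ranged from -4.13 to 0.21 with each library left out (0.21 without ScOE 2, 0.19 without Ctrl 1, 0.12 without Ctrl 3). Psi28S-3342 was 0.16 with library weights, and Tudor-SN-a was -0.064 with quantile normalization and -0.34 to 0.83 with each library left out, the lowest without Ctrl 2. The cause was not tested.

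Replicate numbers did not pair the libraries. Deviations from the group means correlated at 0.52, -0.04 and 0.08 between same-numbered libraries, and ScOE 4 has no partner. With the replicate number as a block 21 snoRNA entries (3 rises, 18 falls), 45 host genes and 10 snoRNP genes were called, CG43051-a was at 0.43, and sc at 6.09.

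Fits chosen after the data were seen gave 3 rises and 16 falls with a pseudocount worth 1 fragment for snoRNA entries, which kept all 17 calls, and 1 rise and 12 falls among entries with at least 10 fragments. Depth limits these results, since 43 of 87 tested entries held fewer than 10 fragments.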
